A study of Mus musculus with 18 samples.

Results

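The chemokines Cxcl12 and Cxcl14 and the receptors Cxcr4 and Ackr3 were followed through 18 RNA-seq libraries of mouse neocortex at stage E14.5. The 4 genes were taken by symbol from a table of 55416 mouse genes, each had a single row, and all 4 were among the 29355 genes that passed the filter on low counts. They had been picked with their differences between cell populations already known, so those differences are described below without a test, and the 4 genes are tested for the effect of EPIREGULIN. Hemispheres of wild-type C57BL/6J embryos were cultured under rotation for 24 h with 50 ng/mL human recombinant EPIREGULIN (Epi), a ligand of the EGF family, or without it (Ctl). Radial glia (RG), the stem cells that line the ventricle, intermediate progenitors (IP), their dividing daughters, and neurons (N) were then isolated, and 3 biological replicates of each gave the groups Epi RG, Ctl RG, Epi IP, Ctl IP, Epi N and Ctl N. Whether a replicate was 1 embryo or a pool, and which markers or sorts separated the populations, was not given in the sources used here.

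CXCL12 is a secreted protein that guides migrating cells. In the developing cortex it is known from the meninges and from the intermediate zone, where it keeps interneurons and Cajal-Retzius cells in their migratory streams. It binds CXCR4, which signals through Gi proteins, and ACKR3, an atypical receptor that recruits arrestins, does not couple to Gi in the usual way and removes CXCL12 from the surroundings. CXCL14 is a highly conserved chemokine whose receptor is less firmly established, and binding to CXCR4 has been reported and disputed.

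Cxcl12 (ENSMUSG00000061353) lies on the plus strand of chromosome 6 at 117145496 to 117158328, and Cxcl14 (ENSMUSG00000021508) on the minus strand of chromosome 13 at 56436456 to 56444364 (GRCm39). Cxcr4 (ENSMUSG00000045382) lies on the minus strand of chromosome 1 at 128515936 to 128520030, and Ackr3 (ENSMUSG00000044337) on the plus strand of the same chromosome at 90131702 to 90144473. None of the 4 overlaps another gene of the table, so their reads are not shared with a neighbour on either strand. The 250 bases before the RefSeq start site are shown for Cxcl12 and Ackr3, whose levels moved together across the populations, and for Cxcr4, whose levels did not follow them. The RefSeq sequences were matched letter for letter in GRCm39 at chr6:117145246-117145495 (plus strand), chr1:90131452-90131701 (plus strand) and chr1:128520037-128520286 (minus strand), and each is written on its gene's own strand with matches to GGGCGG (the GC box) or TATAAA (core of the TATA box), on either strand, in capitals.
Cxcl12: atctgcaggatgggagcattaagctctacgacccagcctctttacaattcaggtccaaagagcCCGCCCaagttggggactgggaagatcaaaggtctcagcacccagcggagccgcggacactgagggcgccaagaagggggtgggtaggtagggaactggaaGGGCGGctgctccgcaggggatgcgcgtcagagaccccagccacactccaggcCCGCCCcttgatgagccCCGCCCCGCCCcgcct
Ackr3: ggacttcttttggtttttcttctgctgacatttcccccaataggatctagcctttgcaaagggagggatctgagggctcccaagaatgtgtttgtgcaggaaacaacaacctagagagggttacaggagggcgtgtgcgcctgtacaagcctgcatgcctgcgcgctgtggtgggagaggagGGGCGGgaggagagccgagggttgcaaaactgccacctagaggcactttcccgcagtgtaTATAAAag
Cxcr4: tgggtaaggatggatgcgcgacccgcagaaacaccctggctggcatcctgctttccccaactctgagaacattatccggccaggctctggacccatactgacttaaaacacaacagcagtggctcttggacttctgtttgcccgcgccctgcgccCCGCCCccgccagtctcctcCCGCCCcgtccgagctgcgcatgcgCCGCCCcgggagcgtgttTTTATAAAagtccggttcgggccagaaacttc
The window of Cxcl12 held 5 matches to GGGCGG and none to TATAAA, that of Ackr3 held 1 match to each, and that of Cxcr4 held 3 matches to GGGCGG and 2 overlapping, opposite matches to TATAAA within 1 stretch. The TATAAA match of Ackr3 began 8 bases before the RefSeq start, and the sense one of Cxcr4 began 30 bases before it. The window of Cxcl14 held neither motif. Further motifs searched on both strands were CAGCTG, an E-box bound by proneural factors, its variant E-box CAGATG, the E-box of Myc factors written CACGTG, and the site of the Notch effector RBPJ written CGTGGGAA, and none of the 4 windows held one. Among 32851 promoter windows of this length, 32.7% held the GC box and 12.4% the TATA box. The E-box CAGCTG was found in 13% of them, the variant CAGATG in 14.4%, the Myc box in 6.02% and the RBPJ site in 0.636%. The matches describe these letters and were not tested against expression.

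Total counts per library lay between 15.5 M and 34.2 M (M, 1e6 counts). Summed over 10 radial glia markers, RG libraries had 4189 to 5148 CPM (counts per 1e6 counts, scaled by TMM factors), IP libraries 317 to 414 and N libraries 188 to 233. These markers include Mki67, a gene of dividing cells, which averaged 523 CPM in Ctl RG against 51.0 CPM in Ctl IP. With Epi it averaged 523 CPM in RG, 42.3 CPM in IP and 10.6 CPM in N. Libraries labelled IP were close to N libraries in their neuron markers: the sum of 10 neuron genes was 310 to 375 CPM in the RG libraries, 8980 to 9923 CPM in those labelled IP and 9123 to 9922 CPM in neurons. The summed level of 10 intermediate progenitor markers was 830 to 1144 CPM in IP and 837 to 1134 CPM in N, with Elavl4 and Insm1 as the largest contributors in N. Taken singly, 7 of the 10 were lower and 1 was higher in Ctl N than in Ctl IP by the edgeR test, beside 10.3% of all genes called. In Ctl IP against Ctl RG, 6 of the 10 were higher, 2 lower and 2 not called, beside 41.3% of all genes called. Btg2 averaged 29.3 CPM in Ctl IP against 53.9 CPM in Ctl RG, and Rhbdl3 29.2 CPM against 75.4 CPM. The defining gene Eomes averaged 122 ± 32.7 CPM in Ctl IP against 17.4 ± 3.27 CPM in Ctl RG (log2 fold change 2.80 ± 0.28, edgeR adjusted p = 2.11e-08), and 10.02 ± 3.44 CPM in Ctl N. IP is used below as the label of these libraries. Beside a CPM value, ± is the SD over 3 libraries, and beside a log2 fold change it is the standard error of the edgeR fit. In bulk libraries such as these, fewer cells of a type and less RNA per cell cannot be told apart.

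The ligands differed in where they were high. Cxcl12 was low in RG and about as high in IP as in N, whereas Cxcl14 was high in IP, at about 10 times its level in either of the other populations. Cxcl12 had 0.797, 0.471 and 0.867 CPM in the 3 Epi RG libraries, against 1.14, 0.726 and 0.920 CPM in Ctl RG. In IP it had 7.13, 7.49 and 8.37 CPM with Epi, against 9.37, 6.28 and 9.15 CPM in Ctl. In N it had 7.93, 8.18 and 7.02 CPM with Epi, against 5.66, 9.87 and 7.82 CPM in Ctl. All 12 IP and N libraries stood above all 6 RG libraries, and IP and N libraries overlapped. The fitted log2 fold change of Cxcl12 between Ctl IP and Ctl RG was 3.11 ± 0.26 (SE), an 8.66-fold difference, and that between Ctl N and Ctl RG was 3.02 ± 0.26. Between Ctl N and Ctl IP it was -0.10 ± 0.23, less than its standard error. The RG values rest on 12 to 47 reads of Cxcl12 per library.

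Cxcl14 had 1.54, 0.982 and 1.61 CPM in Epi RG, against 1.51, 1.28 and 1.23 CPM in Ctl RG. In IP it had 16.4, 15.6 and 11.4 CPM with Epi, against 15.6, 12.4 and 17.9 CPM in Ctl. In N it had 1.94, 1.46 and 0.898 CPM with Epi, against 2.06, 0.942 and 0.519 CPM in Ctl. The lowest IP library, Epi IP 3, was above every RG and N library, and RG and N libraries overlapped. The log2 fold change of Cxcl14 was 3.50 ± 0.33 between Ctl IP and Ctl RG and -3.70 ± 0.35 between Ctl N and Ctl IP, where N was 13.02-fold lower. Between Ctl N and Ctl RG it was -0.20 ± 0.37. The coefficient of variation was 67.7% in Ctl N, where the libraries held 12 to 44 reads of Cxcl14, and 18.1% in Ctl IP.

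**Figure D1:**
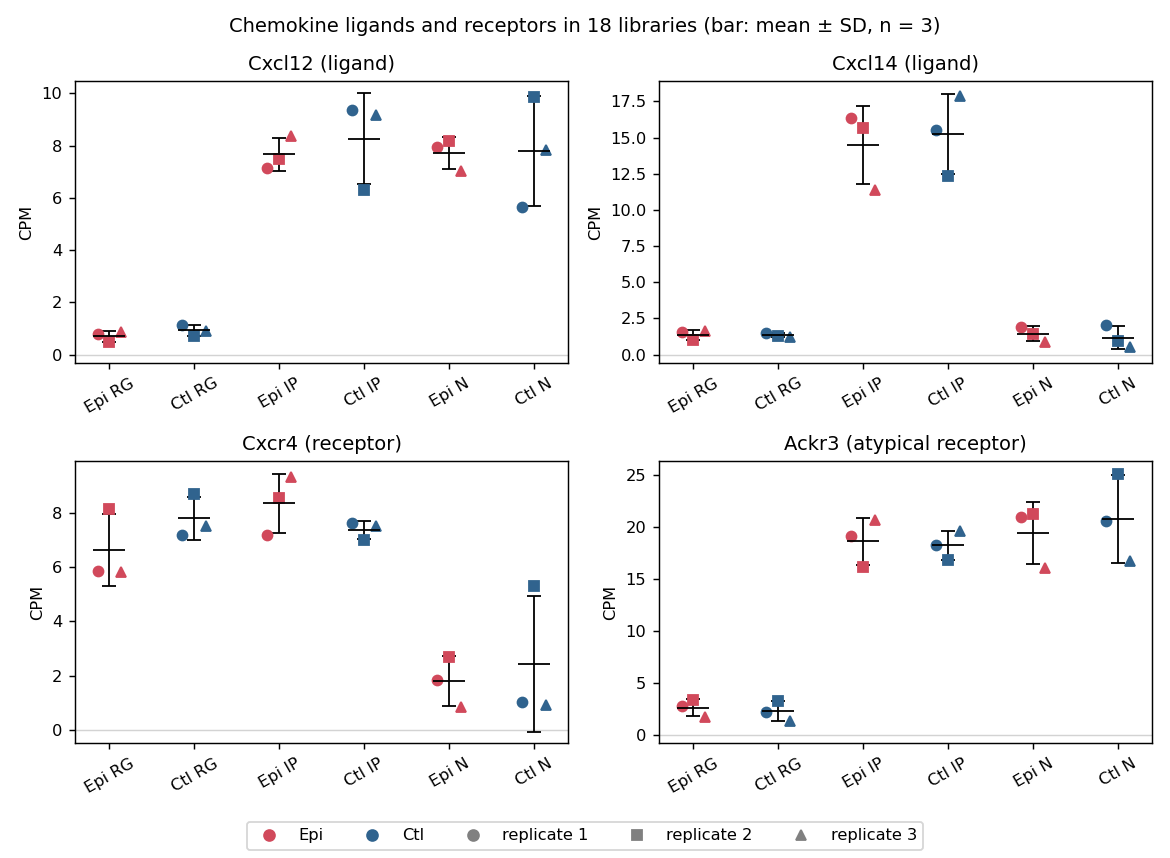
CPM of Cxcl12, Cxcl14, Cxcr4 and Ackr3 (y axes) in the 6 groups (x axes), with 1 point per library, its shape giving the replicate number, and bars for the mean ± SD of 3 libraries. Among the 3 populations, Cxcl12 and Ackr3 are low in RG, Cxcl14 is high in IP and Cxcr4 is low in N, where the library Ctl N 2 stands at 5.32 CPM above the other 5.

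The receptors also differed in where they were high. Ackr3 followed the pattern of Cxcl12, low in RG and high in IP and N, whereas Cxcr4 was at like levels in RG and IP and lower in N. Ackr3 had 2.80, 3.34 and 1.70 CPM in Epi RG, against 2.17, 3.30 and 1.35 CPM in Ctl RG. In IP it had 19.1, 16.2 and 20.6 CPM with Epi, against 18.3, 16.8 and 19.6 CPM in Ctl. In N it had 20.9, 21.3 and 16.0 CPM with Epi, against 20.5, 25.1 and 16.7 CPM in Ctl. The 12 IP and N libraries again lay above all 6 RG libraries, and the ranges of IP and N overlapped. Its log2 fold change was 3.05 ± 0.26 between Ctl IP and Ctl RG, 3.24 ± 0.26 between Ctl N and Ctl RG and 0.18 ± 0.23 between Ctl N and Ctl IP. The replicate numbers ordered Ackr3 alike with and without EPIREGULIN: number 2 was highest and number 3 lowest in RG and in N, and number 3 was highest and number 2 lowest in IP.

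Cxcr4 had 5.88, 8.17 and 5.84 CPM in Epi RG, against 7.21, 8.71 and 7.54 CPM in Ctl RG. In IP it had 7.20, 8.55 and 9.34 CPM with Epi, against 7.66, 7.01 and 7.52 CPM in Ctl. In N it had 1.85, 2.70 and 0.845 CPM with Epi, against 1.03, 5.32 and 0.908 CPM in Ctl. All 6 N libraries lay below all 12 RG and IP libraries, with Ctl N 2 closest to them, and RG and IP overlapped. The log2 fold change of Cxcr4 was -1.65 ± 0.44 between Ctl N and Ctl IP, -1.73 ± 0.43 between Ctl N and Ctl RG and -0.07 ± 0.40 between Ctl IP and Ctl RG. The size of the difference in N depends on Ctl N 2: without that library it was -2.94 ± 0.35 against Ctl IP and -3.00 ± 0.35 against Ctl RG. Without Ctl N 1 it was -1.29 ± 0.44 and without Ctl N 3 -1.25 ± 0.43 against Ctl IP, and in both of these fits Cxcr4 no longer passed the threshold of an adjusted p of 0.05.

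The same differences were taken among the Epi groups. Between Epi IP and Epi RG the log2 fold changes were 3.40 ± 0.27 for Cxcl12, 3.38 ± 0.33 for Cxcl14, 0.34 ± 0.40 for Cxcr4 and 2.84 ± 0.26 for Ackr3. Between Epi N and Epi IP they were 0.01 ± 0.23 for Cxcl12, -3.32 ± 0.34 for Cxcl14, -2.20 ± 0.44 for Cxcr4 and 0.06 ± 0.23 for Ackr3. Between Epi N and Epi RG they were 3.41 ± 0.27, 0.06 ± 0.35, -1.86 ± 0.44 and 2.90 ± 0.26 in the same order of genes. Counted against an adjusted p of 0.05 in edgeR's quasi-likelihood test, 3 of the 4 passed between Ctl IP and Ctl RG, where 41.3% of all genes tested did, 2 between Ctl N and Ctl IP, where 10.3% did, and 3 between Ctl N and Ctl RG, where 38.7% did. The counts were the same among the Epi groups, at 3 beside 42.7% of all genes, 2 beside 11% and 3 beside 39.7%. Because the genes were chosen on these contrasts, nothing is read from these counts.

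Ranked over the 6 groups by mean CPM, each gene fell into an upper and a lower block whose libraries did not overlap. For Cxcl12 the upper block ran Ctl IP (8.27 ± 1.72), Ctl N (7.78 ± 2.11), Epi N (7.71 ± 0.61) and Epi IP (7.66 ± 0.64), and the lower block Ctl RG (0.930 ± 0.210) and Epi RG (0.712 ± 0.211; all SD, n = 3). Cxcl14 had Ctl IP (15.3 ± 2.76) and Epi IP (14.46 ± 2.70) above the remaining 4 groups, whose means lay between 1.17 ± 0.79 in Ctl N and 1.43 ± 0.52 in Epi N. Cxcr4 had Epi IP (8.37 ± 1.08), Ctl RG (7.82 ± 0.79), Ctl IP (7.39 ± 0.34) and Epi RG (6.63 ± 1.33) above Ctl N (2.42 ± 2.51) and Epi N (1.80 ± 0.93). For Ackr3 the order was Ctl N (20.8 ± 4.22), Epi N (19.4 ± 2.95), Epi IP (18.6 ± 2.26) and Ctl IP (18.2 ± 1.39) above Epi RG (2.61 ± 0.83) and Ctl RG (2.27 ± 0.98). Neighbours within a block overlapped in every case. How many of all genes split into such blocks was not counted. The 4 genes were chosen with these differences known, so nothing is read from the split.

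Levels of different genes were compared per kilobase of annotated exon (8.346 kb for Cxcl12, 3.427 kb for Cxcl14, 1.822 kb for Cxcr4 and 8.105 kb for Ackr3). On this scale the level of Ackr3 relative to Cxcr4 within a library was 0.0402 to 0.107 in the 6 RG libraries, 0.425 to 0.595 in the 6 IP libraries and 1.06 to 4.49 in the 6 N libraries. The ranges of the populations did not overlap, and the atypical receptor was thus below the signalling receptor in every RG library and above it in every N library. With the canonical transcript as the length (3.078 kb for Ackr3), the ratios were 0.106 to 0.282 for RG, 1.12 to 1.57 for IP and 2.79 to 11.8 for N, so which receptor had the higher level in IP depends on the length used. The level of Cxcl14 relative to Cxcl12 was 3.21 to 5.07 for RG, 3.31 to 5.59 for IP and 0.161 to 0.886 for N. RG and IP overlapped in this ratio although both ligands were several times higher in IP, and N stood apart. With canonical lengths this ratio was 2.56 to 4.04 for RG, 2.63 to 4.45 for IP and 0.129 to 0.705 for N. The genes were chosen with their population differences known, so nothing is read from how the ratios separate the populations. How many other pairs of genes separate likewise was not counted.

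**Figure D2:**
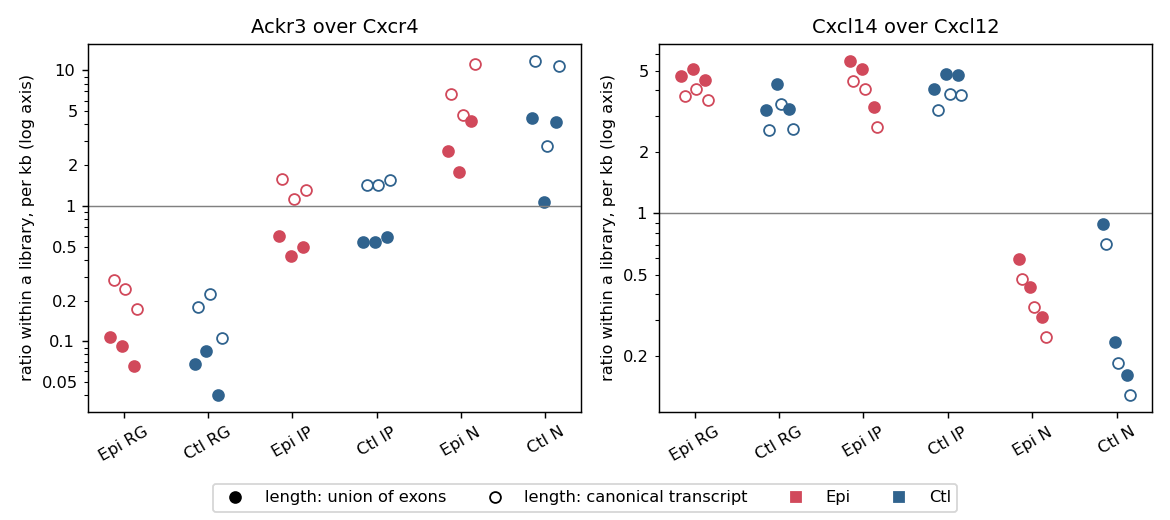
Level of Ackr3 relative to Cxcr4 (left) and of Cxcl14 relative to Cxcl12 (right) within each library, per kilobase, on log axes, with filled points for the length of all annotated exons and open points for the canonical transcript. The receptor ratio climbs through RG, IP and N, from at most 0.107 in RG to at least 1.06 in N by exon length, and the ligand ratio drops below 1 in the N libraries.

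EPIREGULIN changed none of the 4 genes detectably. By edgeR's quasi-likelihood test with Benjamini-Hochberg adjustment over 29355 genes, 0 of the 4 passed in RG, IP or N or in the mean of the populations, and 0% of all genes did in each of these comparisons. At an unadjusted p of 0.05, 478 genes passed in RG, 535 in IP, 752 in N and 841 in the mean. Each number is below a share of 0.05 of the 29355 genes, the share set to pass without any effect. These genes are therefore not read as hits. DESeq2 and limma voom also called 0 genes after adjustment. The furthest apart was Cxcl12 in RG, lower with Epi in 3 of 3 replicate numbers at 0.696, 0.649 and 0.943 times the Ctl value, with a log2 fold change of -0.40 ± 0.29 (95% interval -1.01 to 0.21, unadjusted p = 0.184, adjusted p = 1.00, edgeR). Cxcr4 in N had -0.37 ± 0.47 (-1.34 to 0.60), and this value was 0.91 ± 0.36 without Ctl N 2 (adjusted p = 1.00, edgeR), the opposite direction. Cxcl14 in N had 0.30 ± 0.38 (-0.48 to 1.08) and Ackr3 in RG 0.25 ± 0.27 (-0.32 to 0.81). In RG, Cxcr4 was also lower with Epi in 3 of 3 replicate numbers (0.815, 0.938 and 0.775 times Ctl) and Ackr3 higher in 3 of 3 (1.29, 1.01 and 1.26 times Ctl). For Cxcl14 in RG, and for every gene in IP and N, the replicate numbers were split in direction. How many of all genes had 3 of 3 alike was not counted, so nothing is read from these agreements. Epi and Ctl libraries overlapped for every gene in every population.

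The remaining estimates were closer to 0. In IP the log2 fold changes of Epi over Ctl were -0.12 ± 0.23 for Cxcl12, -0.08 ± 0.29 for Cxcl14, 0.18 ± 0.40 for Cxcr4 and 0.03 ± 0.23 for Ackr3. Averaged over the populations they were -0.18 ± 0.14, 0.09 ± 0.19, -0.14 ± 0.24 and 0.06 ± 0.14 in the same order, with 95% intervals from -0.48 to 0.12 for Cxcl12 and from -0.23 to 0.35 for Ackr3. The intervals for Cxcr4 in single populations were wider, from -1.06 to 0.59 in RG, from -0.65 to 1.01 in IP and from -1.34 to 0.60 in N, so that changes of 2-fold in at least 1 direction lie within each. The test of whether the EPIREGULIN effect differed between populations called 0 of all 29355 genes in each of its 3 comparisons, the 4 genes included. An unadjusted p under 0.05 was found for 442 to 512 genes, again below a share of 0.05 of all genes. The largest estimate of this test was -0.55 ± 0.61 for Cxcr4, N minus IP (adjusted p = 1.00, edgeR).

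**Figure D3:**
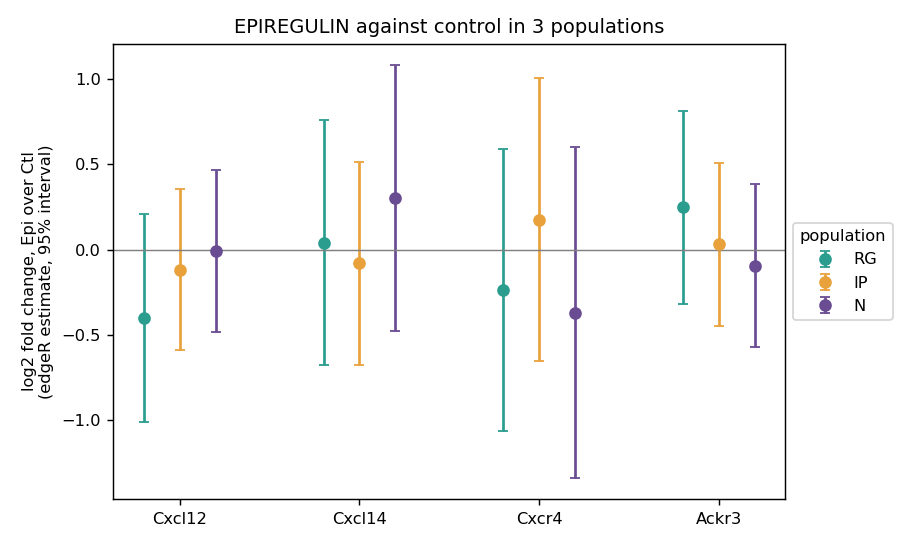
Log2 fold change of Epi over Ctl (y axis, edgeR estimate with its 95% interval) for the 4 genes in RG, IP and N. All 12 intervals include 0, and the widest, for Cxcr4 in N, runs from -1.34 to 0.60.

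Markers of other cell types moved with some of these levels, and their part in them was not tested. Interneurons, which enter the cortex from the ventral forebrain and are known to carry Cxcr4 and Ackr3, were followed by 12 markers. Their summed level was 27.2 CPM in Epi N 3, 117 in Epi N 1 and 205 in Epi N 2, against 25.02 in Ctl N 3, 67.8 in Ctl N 1 and 209 in Ctl N 2. The N libraries with number 2 were the highest of their group both in these markers and in Cxcr4, and those with number 3 the lowest in both. Ackr3 had the same order in each group but a narrower range, from 16.0 to 25.1 CPM. IP libraries had 132 to 255 CPM of interneuron markers and RG libraries 43.0 to 54.4 CPM, and Cxcr4 was at like levels in both. The largest part of the IP sum was Sst, which averaged 71.9 CPM in Ctl IP against 13.8 CPM in Ctl N. In RG much of the sum came from Sp8 and Maf. Without these genes it was 16.0 CPM in Epi N 3 and 13.01 CPM in Ctl N 3, within the 8.83 to 24.8 CPM of the RG libraries, and 51.6 to 174 CPM in the other 4 N libraries. With the N libraries of number 2 left out of both groups, an alternative added after the data were seen, Cxcr4 had a log2 fold change of -2.62 ± 0.30 between Epi N and Epi IP and -2.94 ± 0.31 between Ctl N and Ctl IP.

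**Figure D4:**
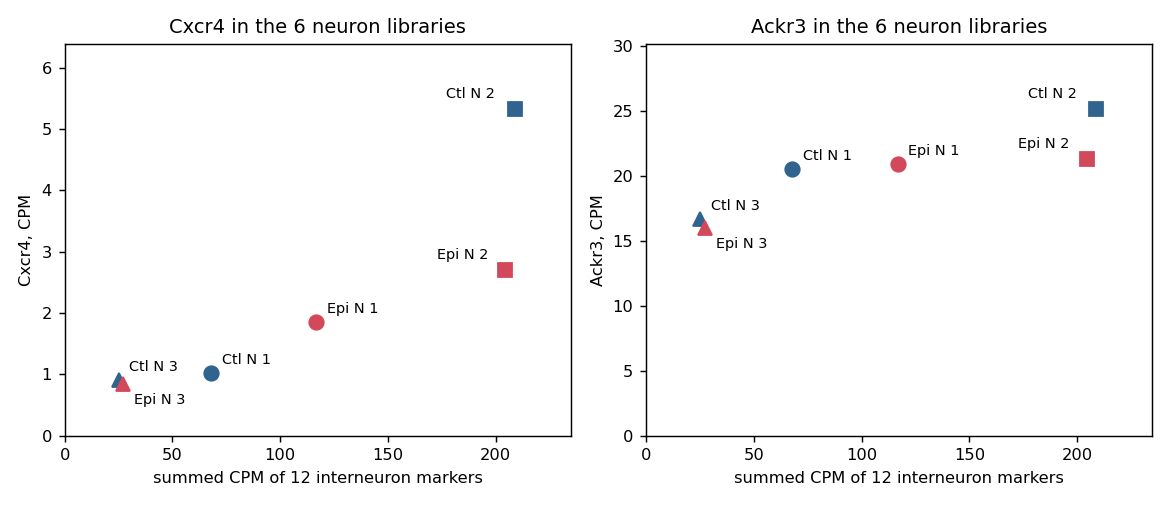
CPM of Cxcr4 (left) and Ackr3 (right) in the 6 neuron libraries against the summed CPM of 12 interneuron markers in the same library. Cxcr4 lies between 0.845 CPM in Epi N 3 and 5.32 CPM in Ctl N 2, which also has the highest marker sum of 209 CPM.

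Markers of Cajal-Retzius cells, early neurons of the marginal zone, were highest where Cxcl14 was highest. The sum of 8 markers was 283 to 440 CPM in Epi IP and 279 to 343 CPM in Ctl IP, while RG libraries had 12.7 to 16.9 CPM and N libraries 39.03 to 60.8 CPM. Most of the IP sum was Reln, at 249 ± 67 CPM in Epi IP and 218 ± 22 CPM in Ctl IP. By the edgeR test all 8 were higher in Ctl IP than in Ctl RG, as were 6666 of all 29355 genes, and 7 of 8 were lower in Ctl N than in Ctl IP, as were 2273 of all genes. Within Epi IP, library 3 had the highest sum, 440 CPM, and the lowest Cxcl14, 11.4 CPM, whereas within Ctl IP, library 3 had the highest sum, 343 CPM, and the highest Cxcl14, 17.9 CPM. Meningeal markers, from the tissue best known for CXCL12, summed to 13.8 to 17.3 CPM for RG, 6.91 to 9.59 for IP and 5.13 to 8.37 for N. The largest parts of the Ctl RG sum were Dcn (6.07 ± 3.01 CPM) and Col1a1 (4.81 ± 1.28 CPM). Of the 7 meningeal markers that passed the filter, 2 were lower, 0 higher and 5 not called in Ctl IP against Ctl RG, beside 41.3% of all genes called. Their part in the Cxcl12 levels was not tested. Mural cell markers had 92.1 to 108 CPM for RG, 7.75 to 13.7 for IP and 7.30 to 10.8 for N. Most of the RG sum was Notch3, at 82.4 ± 9.8 CPM in Epi RG and 85.7 ± 2.6 CPM in Ctl RG, and 5 of the 8 mural markers were not called between Ctl IP and Ctl RG. Endothelial markers stood at 12.4 to 23.3 CPM and microglial markers at 2.98 to 6.65 CPM over all 18 libraries. Subplate markers summed to 155 to 186 CPM for RG, 176 to 219 for IP and 110 to 186 for N.

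The genes whose profile over the 18 libraries lay nearest to each of the 4 were found by the root mean square difference of centred log2 CPM, among 12818 named genes. Nearest to Cxcl12 were Dpysl5 (0.248), a collapsin response mediator of growing axons, Tmem121b, Bdh1, Serp2 and Sh3gl3 (0.262), where the median over all candidates was 1.499. Nearest to Ackr3 were Atp2b4 (0.264), a plasma membrane calcium pump, Srgap1, which acts downstream of Slit and Robo, Atcayos, Sgip1 and Zfp57 (0.310). Atcayos overlaps Atcay on the opposite strand, and unstranded reads of the pair cannot be told apart. Ackr3 itself lay at 0.474 from Cxcl12, and 238 of the 12818 candidates were nearer to Cxcl12 than it was. Nearest to Cxcl14 were Sybu (0.370), a kinesin adaptor, Grm3, a metabotropic glutamate receptor, Nebl, Kirrel3 and Slc8a3 (0.492). Sybu averaged 272 CPM in Epi IP and 265 CPM in Ctl IP, and 29.7 to 33.2 CPM in the other 4 groups. Nearest to Cxcr4 were Pcdh19 (0.481), a protocadherin, Ncald, Kazn, Man1c1 and Bcl2 (0.543), an inhibitor of apoptosis. Pcdh19 averaged 22.3 CPM in Epi N and 22.6 CPM in Ctl N, against 67.8 CPM in Epi IP and 70.0 CPM in Ctl IP.

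The rest of the chemokine system was mostly at low levels, and 36 of 56 listed ligand and receptor genes passed the filter. Of these 36, edgeR called 7 higher and 1 lower in Ctl IP than in Ctl RG (median log2 fold change -0.25, against -0.06 over all genes), beside 41.3% of all genes called. In Ctl N against Ctl IP it called 0 higher and 2 lower (0.22, against 0.03), beside 10.3% of all genes, and in Ctl N against Ctl RG 4 higher and 1 lower (0.05, against 0.06), beside 38.7%. The test of EPIREGULIN called 0 of the 36 in any population, as it called 0% of all genes. Cx3cl1, the membrane-bound ligand fractalkine, peaked in IP as Cxcl14 did: it averaged 12.4 ± 3.1 CPM in Ctl IP against 4.83 ± 1.3 CPM in Ctl RG (log2 fold change 1.37 ± 0.31, adjusted p = 7.88e-04). In Ctl N it averaged 1.96 ± 0.77 CPM and was lower than in Ctl IP (-2.67 ± 0.33, adjusted p = 5.52e-06). Ackr1, the atypical receptor that binds many inflammatory chemokines, averaged 51.1 ± 5.8 CPM in Ctl IP against 7.79 ± 0.21 CPM in Ctl RG (2.72 ± 0.16), but its locus overlaps Cadm3 on the same strand, so its reads are uncertain. Ccl27a, a chemokine with near-identical copies in the mouse that also overlaps Il11ra1, averaged 145 ± 7.2 CPM in Ctl IP against 30.1 ± 3.1 CPM in Ctl RG (2.27 ± 0.10), with the same limit. The mucosal chemokine Ccl28 was higher in Ctl IP than in Ctl RG too (1.03 ± 0.31, adjusted p = 0.0104), as were Cxcl16 (0.68 ± 0.19), a transmembrane chemokine, and Ccl25 (0.39 ± 0.12), which overlap Zmynd15 and Elavl1.

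Downstream of the receptors, 26 of 26 listed signalling and turnover genes passed the filter. In Ctl IP against Ctl RG, 11 were higher and 5 lower (median log2 fold change 0.35, against -0.06 over all genes), where 6666 of all 29355 genes were higher and 5456 lower (41.3% called). In Ctl N against Ctl IP, 1 was higher and 7 lower (-0.15, against 0.03; 10.3% of all genes called), and in Ctl N against Ctl RG, 10 were higher and 5 lower (0.31, against 0.06; 38.7% of all genes called). The test of EPIREGULIN called 0 of the 26 in any population, beside 0% of all genes. The Gi subunits through which CXCR4 signals changed in both directions between Ctl IP and Ctl RG. Gnai2 fell to 148 ± 2.2 CPM in Ctl IP, against 555 ± 4.4 CPM in Ctl RG (-1.91 ± 0.11, adjusted p = 2.17e-12). Gnao1, the neuronal Go subunit, averaged 874 ± 14 CPM in Ctl IP against 319 ± 17 CPM in Ctl RG (1.45 ± 0.10), and Gnaz (1.96 ± 0.13) and Gnai1 (1.29 ± 0.16) were higher too. All 3 were lower in Ctl N than in Ctl IP, with log2 fold changes of -0.62 ± 0.10 for Gnao1, -1.02 ± 0.13 for Gnaz and -0.70 ± 0.16 for Gnai1.

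The arrestins, which bind activated ACKR3 and CXCR4, were both higher in Ctl IP than in Ctl RG, Arrb1 by a log2 fold change of 1.29 ± 0.14 and Arrb2 by 0.38 ± 0.12, and neither passed the test between Ctl N and Ctl IP. Among the kinases that phosphorylate such receptors, Grk3 averaged 117 ± 14 CPM in Ctl IP against 32.1 ± 2.8 CPM in Ctl RG (1.87 ± 0.12, adjusted p = 2.39e-11). In Ctl N, Grk3 averaged 40.3 ± 3.1 CPM, lower than in Ctl IP (-1.53 ± 0.12). Rgs16, which speeds the shut-off of Gi proteins, had the same shape, with 18.8 ± 3.9 CPM in Ctl IP against 4.89 ± 0.86 CPM in Ctl RG (1.95 ± 0.26), and 4.88 ± 1.1 CPM in Ctl N. Rgs3, of the same family, was lower in Ctl IP, at 5.83 ± 1.4 CPM against 27.7 ± 4.8 CPM in Ctl RG (-2.23 ± 0.19). Vps4a, an ATPase of the endosomal sorting machinery that carries CXCR4 to lysosomes, was higher in Ctl IP than in Ctl RG (1.12 ± 0.11).

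Of the 4 other ligands and partners, 2 were lower and 0 higher in Ctl IP than in Ctl RG. Mif, a cytokine that also binds CXCR4, averaged 149 ± 32 CPM in Ctl IP against 232 ± 7.1 CPM in Ctl RG (-0.65 ± 0.13, adjusted p = 2.41e-04). Adm, the adrenomedullin precursor, whose peptide ACKR3 also binds, averaged 3.63 ± 1.3 CPM in Ctl IP against 8.35 ± 2.6 CPM in Ctl RG (-1.21 ± 0.34, adjusted p = 6.07e-03), and 0.299 ± 0.18 CPM in Ctl N. Among the 3 enzymes that cleave CXCL12 or its partners, Mmp14, a membrane metalloproteinase, was lower in Ctl IP than in Ctl RG (-0.78 ± 0.11) and higher in Ctl N than in Ctl IP (0.40 ± 0.11, adjusted p = 0.0165). Mmp2 (2.78 ± 0.39), a gelatinase, and Dpp4 (1.27 ± 0.40), a peptidase that inactivates CXCL12, were higher in Ctl IP than in Ctl RG; both were at low levels and were named after their values were seen.

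**Figure D5:**
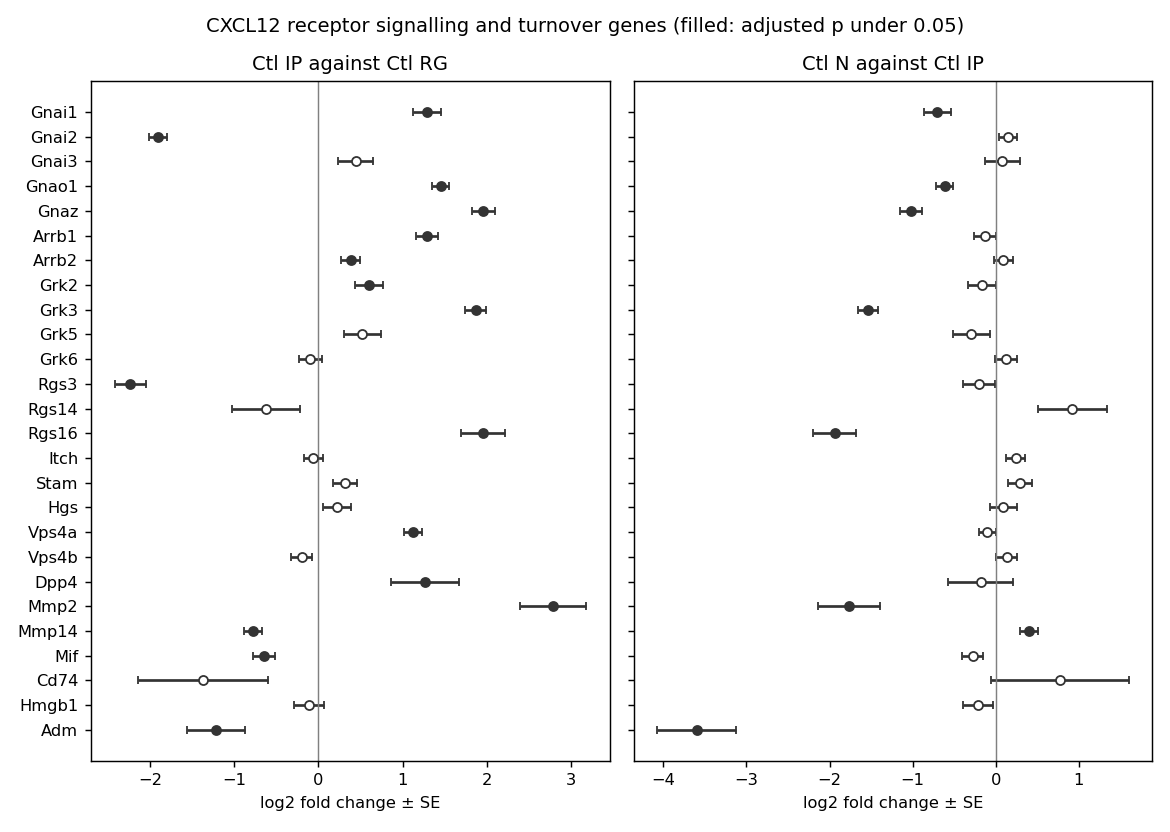
Log2 fold change ± SE of the 26 signalling and turnover genes between Ctl IP and Ctl RG (left) and between Ctl N and Ctl IP (right), with filled points for an adjusted p under 0.05. On the left 11 genes are higher and 5 lower, and on the right 1 is higher and 7 are lower. Grk3, Rgs16 and the subunits Gnao1, Gnaz and Gnai1 are among those higher on the left and lower on the right. Mmp14 is lower on the left and higher on the right.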

How the data were processed

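Whole-number counts per gene were deposited for 18 libraries as 1 table. Per the labels' protocols, RNA was extracted with a kit for fixed tissue and libraries were made by SmartSeq 2, which does not keep the strand and carries no molecular identifiers. Per the submitters' processing notes, bcl2fastq 2.20.0, cutadapt 2.6 and featureCounts 2.0.1 and the build GRCm39 were used; the aligner was not given in the sources used here. In the header, the words for strand and biotype stand over each other's columns, and values were read by content. Here, 92 spike-in rows were left out, genes were filtered with filterByExpr, and all 18 libraries entered 1 fit of edgeR 4.0.16 (R 4.3.3) with TMM factors and 6 groups, giving 12 residual degrees of freedom. CPM used TMM-scaled totals. Alternatives were limma 3.58.1 (voom), DESeq2 1.42.0, RLE and upper-quartile factors, no filter, a replicate block and each library left out. Lengths came from GENCODE for GRCm39, overlaps from the gene positions deposited with the counts, and promoters and their motif shares from RefSeq (GRCm38.p6). The 4 genes and all lists were chosen with earlier results of these data known.

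Within every population, Epi and Ctl libraries of the same number deviated together: correlations of their deviations over 11711 genes were 0.183 to 0.608 for RG, 0.174 to 0.591 for IP and 0.198 to 0.650 for N, so the numbers pair the treatment comparisons. Populations were paired by number too, with 0.264 to 0.597 between Ctl IP and Ctl RG. Between Ctl N and Ctl RG the correlations were lower at their low end, 0.078 to 0.572. Libraries of unlike numbers reached 0.0949 and 0.0721 in these comparisons, and at most 0.0988 between Epi and Ctl within a population. The main fit had no term for the number, so its standard errors, intervals and p-values ignore this pairing. The replicate block, an alternative, included that term. Replicates are labelled biological, with no further detail, and p-values measure the spread between these libraries. Named genes were, per gene, the 5 nearest profiles averaging at least 1 in log2 CPM (prior count 2), and called list genes of that level, up to 6 per comparison and direction by p.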

Additional observations from a re-analysis of the deposited data

How the results depend on the processing

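No test of EPIREGULIN on Cxcl12, Cxcl14, Cxcr4 or Ackr3, nor of its difference between populations, passed an adjusted p of 0.05 under any alternative, and the lowest adjusted p was 0.970 (Cxcl12, mean of the populations, replicate block). The 24 population differences moved by no more than the combined SD of the libraries compared in every alternative. That SD came from the same libraries, so leaving 1 out could hardly exceed it, and no stability is read from this. The widest range was that of Cxcr4 in Ctl N, -2.94 to -1.25 against Ctl IP and -3.00 to -1.31 against Ctl RG. The number of the 4 genes called was as reported under every alternative except Ctl N against Ctl IP without Ctl N 1 or Ctl N 3, where 1 was called. None of the estimates that changed sign had passed the test, and the cause was not tested; besides values near 0 they included Cxcr4 in N, the Cxcr4 effect N minus IP and Cxcl14 in N. With upper-quartile factors Cxcl14 in RG was -0.016 and Ackr3 in IP -0.0088 (log2, Epi over Ctl). With limma voom Cxcl12 in N was 0.036, Cxcr4 in N 0.028 and the Cxcr4 effect, N minus RG, 0.27. With N number 2 left out, chosen after seeing the data, Cxcl12 in N was 0.15, Cxcr4 in N 0.50, Cxcr4 in the mean 0.15, and the Cxcr4 effect 0.32 for N minus IP and 0.73 for N minus RG. Leaving out 1 library at a time gave Cxcl12 -0.20 to 0.19 in N. Cxcl14 gave -0.074 to 0.23 in RG, -0.21 to 0.066 in IP, -0.077 to 1.01 in N and -0.037 to 0.32 in the mean. Cxcr4 gave -0.79 to 0.91 in N and -0.28 to 0.28 in the mean. Ackr3 gave -0.022 to 0.56 in RG, -0.048 to 0.12 in IP, -0.24 to 0.061 in N and -0.030 to 0.16 in the mean. The difference of effects ranged from -0.082 to 0.31 (Cxcl12, N minus IP), -0.31 to 0.021 (Cxcl14, IP minus RG), -0.12 to 0.96 (Cxcl14, N minus RG), -0.97 to 0.73 (Cxcr4, N minus IP), -0.55 to 1.14 (Cxcr4, N minus RG), -0.52 to 0.054 (Ackr3, IP minus RG) and -0.27 to 0.029 (Ackr3, N minus IP).

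With the replicate block, 4652 genes were called between Ctl N and Ctl IP, against 3035 without it, and 4917 between Epi N and Epi IP, against 3216; it changed no call of the 4 genes. Upper-quartile factors moved the share of higher calls to 37.1% between Ctl N and Ctl IP and to 43.0% between Epi N and Epi IP, against 25.1% and 25.6%, and shifted the median of all genes by -0.11 (Ctl IP against Ctl RG), -0.10 (Epi IP against Epi RG) and 0.11 (Epi N against Epi IP). Depth limits Cxcl12 in RG and Cxcl14 and Cxcr4 in N, which rest on as few as 12 reads per library for Cxcl12 and Cxcl14 and 16 for Cxcr4.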
